A study of Mus musculus with 2 samples.

Results

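Hepatoblasts are the liver's own epithelial progenitors. They arise from the foregut endoderm, invade the surrounding mesenchyme, and later give rise to both hepatocytes and the cells that line the bile ducts. In mid-gestation the liver is also the main site of blood formation, so that hepatoblasts lie scattered among maturing blood cells, to which they supply growth factors, while they begin to secrete albumin, alpha-fetoprotein, apolipoproteins and clotting factors into the plasma. The hepatoblasts described here were the 64 cells that carried the deposited cell type label Hepa, of 10537 cells in the deposited cell table. They were compared with the 46 cells labelled EC (endothelial cells) and with the 10427 hematopoietic cells, which carried the labels HPSC, Ery, Eryb, EryP, Mk, G and Mo/KC.

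All cells came from 1 wild-type C57BL/6 mouse liver (C57BL/6J in the methods of the study) at E12.5, in mid-gestation, dissociated, sorted by flow cytometry to remove debris, dead cells and doublets, and loaded as 2 technical replicate libraries for droplet-based single-cell RNA sequencing. Library 1 held 5480 kept cells with 51969226 unique molecular identifiers (UMIs, counted transcripts) and library 2 held 5057 kept cells with 62738015 UMIs. Hepatoblasts made up 33 of 5480 cells in library 1 (0.602%, 95% Clopper-Pearson interval 0.415 to 0.845%) and 31 of 5057 cells in library 2 (0.613%, interval 0.417 to 0.869%). The 2 shares thus differed by less than their counting error. Because there was 1 liver, no test between animals was possible, no p-value is given, and all intervals below cover counting error only.

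The 64 cells yielded 1450195 UMIs, 640236 in library 1 and 809959 in library 2. The median hepatoblast had 22346 UMIs and 4140 detected genes, compared with 14728 UMIs and 3788 genes in EC and 8132 UMIs and 1391 genes in hematopoietic cells. Depth varied widely among them, from 1007 to 64955 UMIs. In library 1, 9 hepatoblasts had under 4000 UMIs, whereas the shallowest hepatoblast of library 2 had 4538. Expression levels are given as counts per 1000000 UMIs of the pooled cells (CPM), with each library's value. They are not corrected for transcript length, so that a gene is compared between cells and not with other genes. Of all kept cells, 31 barcodes occurred in both libraries, and none of these was labelled hepatoblast in both. One hepatoblast barcode was found in any kept cell of the other library.

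The hepatoblasts did not form an even group. In 12 of the 64 cells, 1 in library 1 and 11 in library 2, the 4 adult globin genes (Hbb-bs, Hbb-bt and their alpha partners Hba-a1 and Hba-a2) made up 12.2 to 41.4% of UMIs, whereas the other 52 cells ranged from 0.773 to 6.09%. Cells with at least 10% adult globin also occurred in the other types that are not erythroid, with 4 of 46 EC, 28 of 421 HPSC (hematopoietic stem and progenitor cells), 23 of 287 G (granulocytes), 10 of 135 Mk (megakaryocytes) and 9 of 114 Mo/KC cells (monocytes and Kupffer cells). The same 12 cells had few transcripts of secreted plasma proteins. The genes of 4 lists (plasma carriers, apolipoproteins, coagulation factors and complement) together made up a median of 1.53% of their UMIs (range 0.267 to 2.53%), compared with a median of 10.0% (range 0.410 to 28.1%) in the other 52. The 12 cells were shallower, with a median of 6242 UMIs against 25912. Red cell genes other than globins moved with the globins. Alas2, Slc4a1, Klf1, Gata1, Rhd and Epor summed to a median of 1881 CPM (range 865 to 3742) in the 12 cells and 175 CPM (range 0 to 2714) in the other 52. Their summed G2 and mitosis genes had a median of 2514 against 1630 CPM, and their S phase genes 3585 against 1175 CPM. Several results below are therefore given with and without these 12 cells, a split at 10% adult globin that was made after seeing the data. Whether the 12 barcodes each held 1 cell was not tested.

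**Figure D1:**
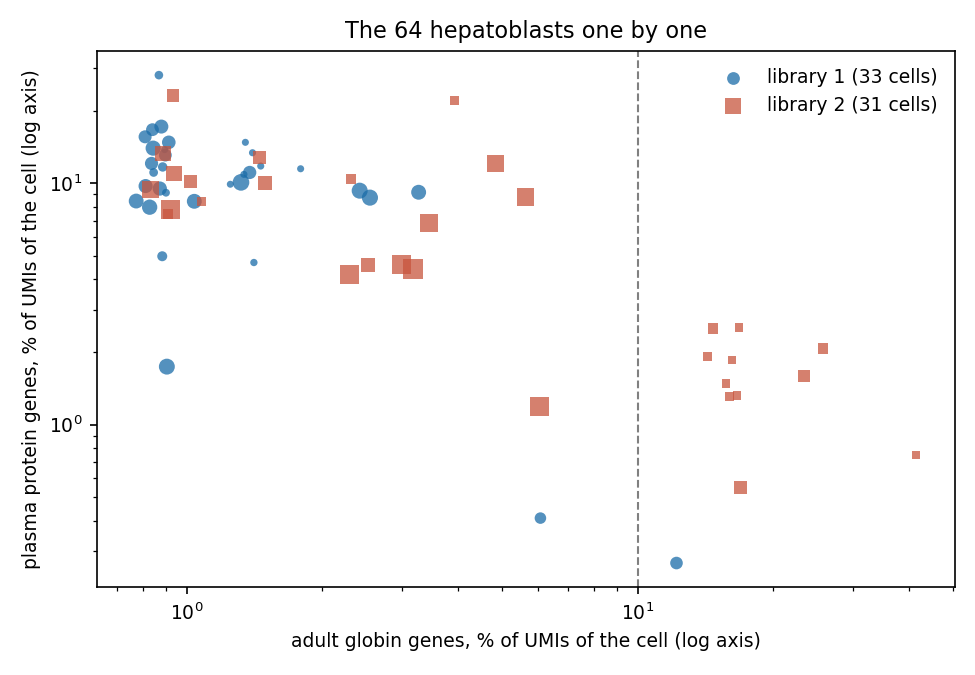
Each point is 1 of the 64 hepatoblasts, with the share of its UMIs from adult globin genes (x axis, percent, log scale) and from plasma protein genes (y axis, percent, log scale); point size grows with the UMIs of the cell, blue circles are library 1, red squares are library 2, and the dashed line marks 10% globin. The 12 cells to the right of the line, 11 of them from library 2, all lie at or under 2.53% plasma protein UMIs, and 3 cells left of the line lie under 3% as well.

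A further 3 cells left of that split also had under 3% plasma protein UMIs. One, in library 1, had 16580 UMIs, 6.09% adult globin, no Alb UMI and 21 Afp UMIs. Another in library 1 had 38806 UMIs, 0.904% globin, 89 Alb UMIs and 109 Afp UMIs. The last, in library 2, had 54007 UMIs, 6.06% globin, 27 Alb UMIs and 65 Afp UMIs. The lowest hepatoblast, at 0.267% plasma protein UMIs, lay within the range of EC, whose median was 0.237% (range 0.0338 to 0.658%), and near the median of 0.275% in Mo/KC cells. In free RNA, estimated from barcodes with 1 to 50 UMIs, these genes made up 0.155% of UMIs in library 1 and 0.119% in library 2. Outside the hepatoblasts, 3 cells reached 3% of plasma protein UMIs, with a maximum of 3.87%. All 3 were Mo/KC cells, which express Apoe, a member of the apolipoprotein list, at 2687 CPM.

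The authors named the cell types from marker genes, so the levels of such genes describe the cells labelled Hepa and are no independent check of the label. Afp, which encodes the fetal plasma carrier alpha-fetoprotein, was at 19160.1 CPM in hepatoblasts of library 1 and at 14446 CPM in those of library 2. It was at 14.5 CPM in EC and 10.4 CPM in hematopoietic cells. Alb, which encodes albumin, was at 12595 and 8946 CPM in the 2 libraries, compared with 13.3 CPM in EC and 6.04 CPM in hematopoietic cells. Apoa1, the main protein of high-density lipoprotein, was at 8723 and 5539 CPM, and Ttr, the carrier of thyroid hormone, at 5923 and 4655 CPM. No other cell type exceeded 14.5 CPM for any of these 4 genes. All 4 were lower in library 2, at 0.754 times the level of library 1 for Afp, 0.710 for Alb, 0.635 for Apoa1 and 0.786 for Ttr. Without the 12 globin-rich cells the pooled levels were 17883 CPM for Afp, 11394 for Alb, 7484 for Apoa1 and 5582 for Ttr.

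**Figure D2:**
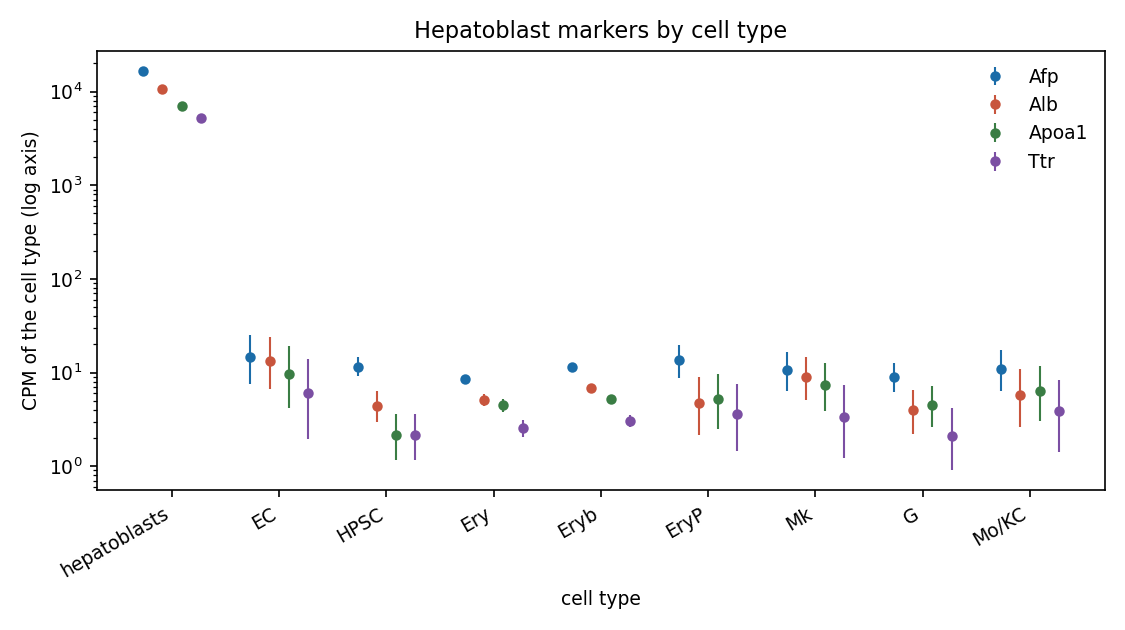
CPM of Afp, Alb, Apoa1 and Ttr (y axis, log scale) in each deposited cell type (x axis), both libraries pooled, with exact Poisson 95% intervals. The 4 genes lie between 5214 and 16527 CPM in hepatoblasts and at or under 14.5 CPM in every other type.

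Nearly every hepatoblast carried marker transcripts, also when 3600 UMIs were drawn at random from every cell to make depth equal. Afp was seen in 55 of 55 cells deep enough (100%, interval 93.5 to 100%), Alb in 53 of 55 (96.4%, interval 87.5 to 99.6%) and Ttr in 96.4%. Without thinning, 64, 63 and 63 of 64 cells had a UMI of Afp, Alb and Ttr. The background was low. At the same depth, Alb was seen in 3 of 45 EC (6.67%, median depth before thinning 14728 UMIs) and in 36 of 1595 erythroid cells of the type Ery (2.26%, median depth 22845 UMIs).

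Alb and Afp are neighbours in the albumin gene cluster, Alb at chr5:90460897-90476602 and Afp at chr5:90490737-90508907 on the plus strand (GRCm38, GENCODE). The 250 bases upstream of the RefSeq start of both genes are shown because the genes were almost silent in every other cell type of the liver. The sequences are from build GRCm38.p6, chr5:90460620-90460869 for Alb and chr5:90490464-90490713 for Afp, and are written 5′ to 3′ in the direction of transcription. Capitals mark matches to TGTTTGC, a motif bound by forkhead factors such as FOXA, searched on both strands.
Alb: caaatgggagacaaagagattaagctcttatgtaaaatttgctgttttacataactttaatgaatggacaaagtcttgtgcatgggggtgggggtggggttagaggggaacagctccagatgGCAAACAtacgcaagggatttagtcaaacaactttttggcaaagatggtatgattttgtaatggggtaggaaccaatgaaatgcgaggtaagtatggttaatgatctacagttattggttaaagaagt
Afp: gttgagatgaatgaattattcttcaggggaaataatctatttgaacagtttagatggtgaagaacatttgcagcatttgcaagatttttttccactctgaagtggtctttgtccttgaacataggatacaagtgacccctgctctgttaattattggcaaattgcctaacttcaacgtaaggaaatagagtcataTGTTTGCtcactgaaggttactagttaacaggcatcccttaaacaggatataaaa
The forkhead letters began 128 bases before the RefSeq start of Alb, on the opposite strand, and 55 bases before that of Afp. The RefSeq starts lie upstream of the GENCODE starts given above, so distances from the latter are longer. TGTTTGC was present on either strand in 4.30% of 32851 such mouse windows, so that a match is a description of the sequence and not evidence of binding.

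Transcripts of plasma carriers were far higher in sum in hepatoblasts than in the other cells. Over 27 genes they reached 67470.4 CPM in the first library and 49268 CPM in the second, compared with 63.9 CPM in EC and 86.3 CPM in hematopoietic cells, among which G cells were highest at 1137 CPM. Besides Afp, Alb and Ttr, Rbp4, the plasma carrier of retinol, was at 10601 and 6693 CPM, against 3.62 CPM in EC. Serpina6, which binds corticosteroids, was at 3994 and 2814 CPM, against 1.21 CPM in EC, a single UMI. Trf, which encodes the iron carrier transferrin, was at 2599 and 3422 CPM, and was thus higher in library 2. Fetub, Cp, Orm1, A1bg and Azgp1 had no UMI in hepatoblasts, where 3 UMIs would be 2.07 CPM. Orm1 and Cp encode acute-phase and copper-carrying proteins of the adult liver. Hp, which encodes the hemoglobin carrier haptoglobin, went the other way, with 4 UMIs in hepatoblasts (2.76 CPM) against 46.9 CPM in hematopoietic cells, a ratio of 0.0588 (interval 0.0160 to 0.151), and 1083 CPM in G cells.

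Across the transcriptome, 220 of 2729 genes tested (8.06%) were at least 10-fold higher in hepatoblasts than in hematopoietic cells, where a gene was tested if it reached 50 CPM in either population and a population with under 3 UMIs was set to 3. At least 10-fold lower were 36 genes (1.32%), a number that rose to 200 when the erythroid types Ery, Eryb and EryP were left out of the hematopoietic cells. Compared with EC, 174 of 3329 genes tested (5.23%) were at least 10-fold higher and 243 (7.30%) at least 10-fold lower. In library 1 alone the number higher than EC was 113, and in library 2 alone 149. The median fold over all tested genes was 1.2 against hematopoietic cells and 0.815 against EC. Of the genes higher than in hematopoietic cells 156 were also higher than in EC, which was 70.9% of the first set and 89.7% of the second. Just inside the threshold against hematopoietic cells were Hadh (10.0-fold), Rnf128 (10.2-fold) and Mgst1 (10.8-fold), and just outside were Ass1 (9.66-fold), Reep6 (9.54-fold) and Rbpms (9.48-fold). The cell types had been defined from these same genes, so the folds are a description of the label and not a test. Many members of the liver gene lists reached 50 CPM in neither population, and most of those that were tested did so through the hepatoblasts alone, which makes a high fold likely among them. The lists are described by their summed levels and by single genes.

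Among the plasma carriers, the 5 alpha-1-antitrypsin genes Serpina1a to Serpina1e, whose near-identical sequences can share reads, are uncertain one by one. Serpina1b was at 3524 and 2359 CPM in the 2 libraries and Serpina1a at 2019.6 and 1143 CPM.

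Apolipoprotein and lipid transfer genes summed to 25094 CPM in library 1 and 18522 CPM in library 2, against 2283 CPM in EC and 209.8 CPM in hematopoietic cells, among which Mo/KC cells were highest at 2827 CPM. Besides Apoa1, Apoa2, another protein of high-density lipoprotein, was at 6813 and 5849.7 CPM, and Apom, a carrier of sphingosine-1-phosphate, at 3631 and 2603 CPM. Apoe, a ligand of lipoprotein receptors, was at 4219 and 3159 CPM in hepatoblasts but also at 2232 CPM in EC. Its ratio to EC was only 1.62 (interval 1.54 to 1.71). Apoa4, an intestinal and liver apolipoprotein, had no UMI in hepatoblasts.

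The 24 coagulation factors and inhibitors summed to 6273 CPM in library 1 and 4195 CPM in library 2, against 66.4 CPM in EC and 19.6 CPM in hematopoietic cells, among which Mk cells were highest at 429 CPM. More than 3 UMIs were found for 19 of the 24 in hepatoblasts. The 3 chains of fibrinogen were among them. Fgb was at 1265 and 796 CPM, Fgg at 786 and 461 CPM, and Fga at 449.8 and 362 CPM in the 2 libraries. Serpinf2, the inhibitor of plasmin, was at 1328 and 883 CPM, and F12, which starts the contact pathway of clotting, at 120.3 and 136 CPM, with no UMI in EC. Vwf, the von Willebrand factor made by endothelium and platelets, and Hrg had no UMI in hepatoblasts.

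The 21 complement genes summed to 929 CPM in library 1 and 691 CPM in library 2, against 10.9 CPM in EC and 19.7 CPM in hematopoietic cells. Among the latter the sum reached 750.0 CPM in Mo/KC cells, close to the 796 CPM of pooled hepatoblasts, but there C1qa, at 418 CPM, and Cfp, at 259.6 CPM, made up most of it. In hepatoblasts other members led. C3, the central complement component, was at 272 and 248 CPM, Cfi, a protease that inactivates C3b, at 244 and 143 CPM, C8g at 98.4 and 67.9 CPM, and Mbl1, a mannose-binding lectin, at 67.2 and 61.7 CPM. C1qa, C6, C9 and Mbl2 had no UMI.

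Together the 4 plasma protein lists made up 9.98% of hepatoblast UMIs in library 1 and 7.27% in library 2, compared with 0.242% in EC and 0.0335% in hematopoietic cells. The machinery of secretion was not set apart in the same way. The 22 secretory pathway genes, which encode the translocon, chaperones and disulfide isomerases of the endoplasmic reticulum, summed to 8549 CPM in hepatoblasts and 8013 CPM in EC, a ratio of 1.07 (interval 1.04 to 1.10), and none of the 22 was 10-fold higher or lower. Against hematopoietic cells the ratio was 2.62 (interval 2.57 to 2.67). Calr, a chaperone of the endoplasmic reticulum, was at 905 CPM in hepatoblasts and 1017 CPM in EC, and Hsp90b1, another, at 819.9 and 808 CPM. Ssr4, a subunit of the translocon-associated complex, was at 603 CPM in hepatoblasts and 203 CPM in EC.

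**Figure D3:**
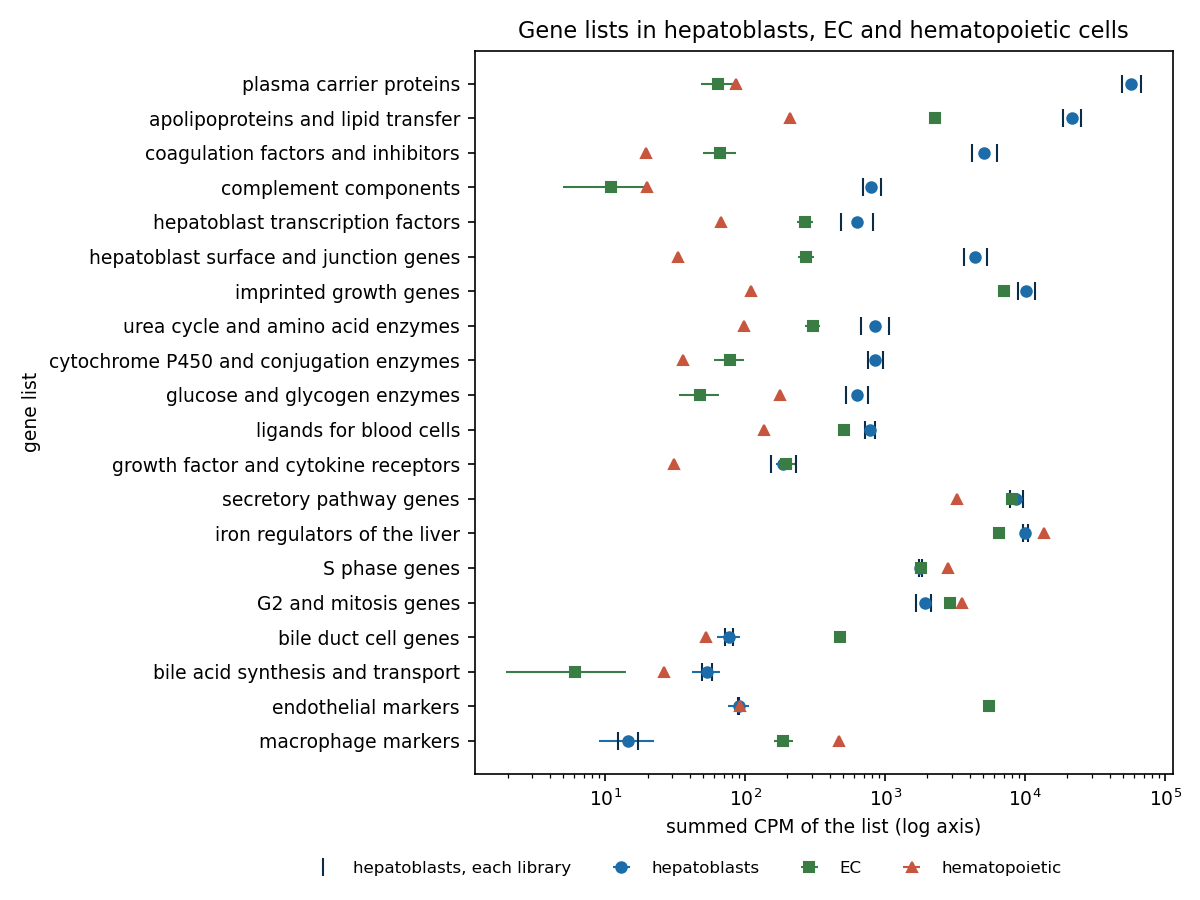
Summed CPM of 20 gene lists (x axis, log scale) in hepatoblasts (blue circles), EC (green squares) and hematopoietic cells (red triangles), with exact Poisson 95% intervals; dark ticks are the hepatoblasts of each library. The plasma protein lists lie 9.38-fold or more above EC, while the secretory pathway, S phase and receptor lists nearly coincide with EC.

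The 24 transcription factors of the liver list summed to 818 CPM in library 1 and 482 CPM in library 2, against 268 CPM in EC and 66.6 CPM in hematopoietic cells. In Mo/KC cells the sum was 815 CPM, above the 630.3 CPM of pooled hepatoblasts, and 683 CPM of it was Cebpb. In G cells it was 460.2 CPM. At least 3 UMIs were found for 19 of them in hepatoblasts. At least 1 UMI was found for 23 in hepatoblasts and for 21 in the far more numerous hematopoietic cells, so that detection alone does not set the hepatoblasts apart. Foxa3, a forkhead factor of the endoderm, was at 128 and 74.1 CPM in the 2 libraries and had no UMI in EC. Hnf4a, the nuclear receptor central to hepatocyte identity, was at 79.7 and 61.7 CPM, with 1 UMI in EC. Creb3l3, a regulator of lipid and iron genes, was at 92.2 and 45.7 CPM, and Onecut2, a homeobox factor of the early liver, at 76.5 and 51.9 CPM. Neither had a UMI in EC. The related Onecut1 had 1 UMI.

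The other factors were under 50 CPM in the pooled hepatoblasts. Cebpa, needed for hepatocyte metabolism, was at 53.1 and 40.7 CPM in the 2 libraries, but was also expressed in G cells at 60.2 CPM. Prox1, required for hepatoblasts to migrate out of the bud, was at 48.4 and 29.6 CPM, against 2.41 CPM in EC. Cebpb was at 51.5 and 28.4 CPM but at 683 CPM in Mo/KC cells. Gata6 was at 40.6 and 14.8 CPM and Sall4, a factor of fetal progenitors, at 34.4 and 16.1 CPM. Foxa2 was at 18.7 and 18.5 CPM, Foxa1 at 15.6 and 7.41 CPM and Tbx3 at 20.3 and 11.1 CPM, and none of these had a UMI in EC. Nr1i2, the pregnane X receptor, was at 15.6 and 12.3 CPM, and Rxra, the partner of many nuclear receptors, at 15.6 and 6.17 CPM. Ppara, a lipid sensor, had 7 UMIs and Nr1i3 had 2. Nr0b2 had 1 UMI, and Nr1h4, which encodes the bile acid receptor FXR, had none.

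Hhex and Gata4 were higher in EC than in hepatoblasts. Hhex, which acts in both early liver and endothelium, was at 62.5 and 33.3 CPM in hepatoblasts and at 119 CPM in EC, a ratio of 0.387 (interval 0.279 to 0.533). Its highest level was in HPSC, at 146 CPM. Gata4 had 2 UMIs in hepatoblasts, 1.38 CPM, against 96.5 CPM in EC, a ratio from the 2 UMIs with an interval of 0.0017 to 0.0533. Nr5a2, a nuclear receptor of liver and pancreas, was at 20.3 and 17.3 CPM in hepatoblasts and at 22.9 CPM in EC, a ratio of 0.812 (interval 0.435 to 1.55), so that no difference was detectable at this depth.

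**Figure D4:**
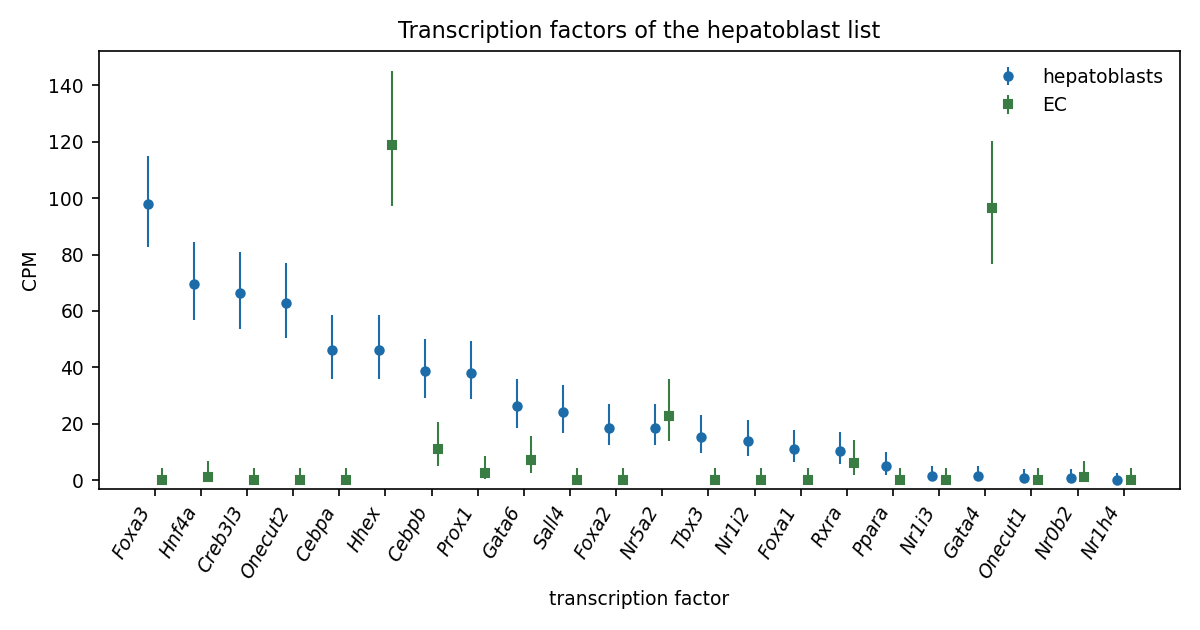
CPM (y axis, linear) of 22 transcription factors of the hepatoblast list (x axis) in hepatoblasts (blue circles) and EC (green squares), both libraries pooled, with exact Poisson 95% intervals. Foxa3, at 97.9 CPM in hepatoblasts, has no UMI in EC, whereas Hhex at 119 CPM and Gata4 at 96.5 CPM are higher in EC.

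A factor with so few UMIs is easily missed in a single cell. After thinning to 3600 UMIs, Hnf4a was seen in 15 of 55 hepatoblasts (27.3%, interval 16.1 to 41.0%), compared with 0 of 45 EC (Clopper-Pearson upper limit 7.87%) and 1 of 419 HPSC. Without thinning it was seen in 33 of 64 hepatoblasts (51.6%), 1 of 46 EC (2.17%) and 14 of 421 HPSC (3.33%). Foxa3 was likewise seen in 15 of 55 thinned cells and in 43 of 64 unthinned cells (67.2%), and in no thinned EC.

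Surface and junction genes of hepatoblasts summed to 5295 CPM in library 1 and 3680.4 CPM in library 2, against 273 CPM in EC. Dlk1, a membrane protein used to isolate hepatoblasts, made up most of this, at 3919 and 2680.4 CPM. It was at 80.8 CPM in EC and at 223 CPM in Mk cells, the highest of the other types. It was found in 51 of 55 thinned hepatoblasts (92.7%), and in all 43 without the globin-rich cells. Thinned cells of other types carried it too, with 120 of 419 HPSC (28.6%), 19 of 102 Mk (18.6%) and 1 of 45 EC (2.22%). Krt18 and Krt8, the keratin pair of simple epithelia, were at 347 and 254 CPM in pooled hepatoblasts, with no UMI and 1 UMI in EC. Gpc3, a heparan sulfate proteoglycan of fetal liver, was at 242 and 185 CPM, and Gjb1, the gap junction protein of hepatocytes, at 170.2 and 146 CPM. Itga6, an integrin chain, and Dpp4, a peptidase of the cell surface, went the other way, at 0.0324 and 0.0301 times the level of EC with under 3 UMIs set to 3. Epcam, a marker of the earliest hepatic bud and of bile ducts, had 1 UMI, and Itga6, Cldn2 and Cldn3 had none.

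There was little sign of the bile duct program. Of 14 genes, Krt19, Krt7, Spp1, Cftr and Cldn4 had no UMI in 1450195, and Sox9, the earliest bile duct factor, had 3. The list summed to 75.9 CPM in hepatoblasts and 475 CPM in EC, where Aqp1, a water channel also of endothelium, was at 361 CPM. In hepatoblasts Aqp1 was at 22.1 CPM, Hes1, a Notch target, at 21.4 CPM, Notch2 at 17.2 CPM and Ggt1 at 8.27 CPM.

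Metabolic genes of the mature hepatocyte were divided. Of the 20 urea cycle and amino acid genes 16 had at least 3 UMIs and 4 had none. Ass1 (219 and 91.4 CPM in the 2 libraries), Asl (152 and 101 CPM) and Otc (133 and 74.1 CPM), which encode 3 steps of the urea cycle, were present, whereas Cps1, the enzyme of its first step, had no UMI. Asl and Otc were at least 10-fold higher than in hematopoietic cells, while Ass1, which was at 40.0 CPM in Ery cells, was not. Glul, the glutamine synthetase, was at 136 CPM, and lower than the 292 CPM in EC. Tat, Tdo2 and Sds, amino acid enzymes known to rise around birth, had no UMI either.

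The glucose genes were also divided. Gys2, the liver glycogen synthase, was at 76.5 and 60.5 CPM in the 2 libraries and had no UMI in EC. Khk, which phosphorylates fructose, was at 82.1 CPM and Pklr, the pyruvate kinase of liver and red cells, at 69.0 CPM, compared with 107 CPM in hematopoietic cells. Pck1, G6pc and Fbp1, which encode key enzymes of glucose production, had no UMI.

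Among 20 cytochrome P450 and conjugation genes, 9 had no UMI, including Cyp1a2, Cyp2c29, Cyp3a11, Cyp3a16, Cyp2f2 and Ugt1a1. Gstm1, a glutathione transferase, was at 681 and 536 CPM and made up most of the sum of 839.9 CPM. Ugt2b34, a glucuronosyltransferase, was at 106 and 58.0 CPM, Por, the electron donor of P450 enzymes, at 43.4 CPM and Gsta4 at 40.0 CPM. Outside the list, Cyp2c68, another P450 gene, was at 183 and 87.7 CPM, with no UMI in EC. It belongs to a family of near-identical genes and is uncertain. Few bile acid transcripts were seen, with 53.1 CPM summed over 16 genes and 9 without a UMI, among them Cyp7a1, the rate-limiting enzyme of bile acid synthesis, and Slc10a1, the main bile acid importer. Abcc2, an exporter of the canalicular membrane, was at 30.3 CPM and Abcb4, a phospholipid exporter, at 13.8 CPM.

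Of the iron genes 4 reached the level for testing, and 0 of the 4 were at least 10-fold higher than in hematopoietic cells (8.06% of all genes) or in EC (5.23%). Among the members below that level, Tmprss6, a protease that restrains hepcidin, was at 20.7 CPM in hepatoblasts. This was 775-fold higher than in hematopoietic cells (interval 295 to 10042), where its count of under 3 UMIs was set to 3. Slc39a14, a metal importer, was 28.1-fold higher than in hematopoietic cells (interval 16.2 to 47). Of the ferritin chains, Ftl1 was at 6668 and 5745 CPM and Fth1 at 3602 and 3652 CPM, compared with 6639.8 CPM for Ftl1 and 6630.1 CPM for Fth1 in hematopoietic cells and 4405 and 1759 CPM in EC. The ratio of Fth1 was 0.547 to hematopoietic cells (interval 0.533 to 0.563) and 2.06 to EC (interval 1.95 to 2.19). Tfrc, the transferrin receptor, was at 54.7 and 81.5 CPM, against 239.7 CPM in hematopoietic cells, and Id1, a target of BMP signals, at 79.7 and 42.0 CPM, against 228 CPM in EC. Hamp, the iron hormone hepcidin, had 2 UMIs, both in library 1.

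The liver is the niche of the blood cells around it, and 8 of 18 ligand genes had more than 3 UMIs in hepatoblasts. The 18 genes summed to 774 CPM, against 509 CPM in EC and 965 CPM in Mk cells. Igf2 was at 611 and 519.8 CPM in the 2 libraries, 434-fold higher than in hematopoietic cells and 5.04-fold higher than in EC (interval 4.06 to 6.33). Cxcl12, the chemokine that retains progenitors, was at 59.4 and 40.7 CPM, against 7.24 CPM in EC. Tgfb1 was at 37.2 CPM and lower than in EC, at 311 CPM. Kitl, which encodes stem cell factor, the ligand of KIT, was at 31.2 and 25.9 CPM in hepatoblasts and at 25.3 CPM in EC, a ratio of 1.12 (interval 0.644 to 1.99), so that no difference between these populations was detectable at this depth. In hematopoietic cells Kitl was at 0.0623 CPM. After thinning it was seen in 6 of 55 hepatoblasts (10.9%) and 5 of 45 EC (11.1%), and in 0 of 419 HPSC. Thpo, thrombopoietin, had 9 UMIs in hepatoblasts. Epo, Igf1, Gas6, Hgf, Il34, Bmp4 and Lif had no UMI, where 3 UMIs would be 2.07 CPM. These values are of the ligand as RNA only.

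Imprinted growth genes were high in hepatoblasts, and their order differed from that in endothelium. The 14 genes summed to 11743 CPM in library 1 and 8891 CPM in library 2, against 7032 CPM in EC and 109 CPM in hematopoietic cells, among which Mk cells were highest at 1714 CPM. Most of the sum in EC was Mest, at 4964 CPM, with 17 UMIs (11.7 CPM) in hepatoblasts. The maternally expressed H19 was at 3269 and 2649.5 CPM, against 936 CPM in EC, a ratio of 3.12 (interval 2.89 to 3.37). Dlk1 was 39.9-fold higher than in EC (interval 31.4 to 51.6), and 22.7-fold higher in library 2 alone. All 67 Dlk1 UMIs of EC came from 2 cells of library 2. Meg3, the maternally expressed non-coding RNA of the Dlk1 locus, was at 2238 and 1845 CPM, against 149.6 CPM in EC, a ratio of 13.5 (interval 11.3 to 16.3). Cdkn1c, an inhibitor of the cell cycle, was at 873 and 635 CPM, against 351 CPM in EC and 409 CPM in Mk cells. Plagl1 and Ndn, at 4.83 and 6.21 CPM, were lower than in EC, with ratios of 0.0625 (interval 0.0242 to 0.136) and 0.0779 (interval 0.0341 to 0.157). After thinning, Mest was seen in 1.82% of hepatoblasts and in all 45 EC.

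In the fetal growth list, which besides Afp holds RNA-binding proteins and chromatin factors of fetal cells, Mdk, the growth factor midkine, was at 149.9 and 125 CPM, 21.3-fold higher than in hematopoietic cells (interval 18.1 to 25) and 2.96-fold higher than in EC (interval 2.09 to 4.31), where it was at 45.8 CPM. Its highest level was in Mk cells, at 172 CPM, against 136 CPM in pooled hepatoblasts. Igf2bp1, which binds Igf2 RNA, was at 100 and 53.1 CPM, against 85.7 CPM in EC. Hmga1 fell from 155 CPM in library 1 to 8.64 CPM in library 2. A gap of this kind was also present in hematopoietic cells, at 119 and 3.85 CPM, and in EC, at 87.8 and 3.53 CPM.

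Receptor transcripts were few. None of the 20 growth factor and cytokine receptor genes reached 50 CPM. They summed to 187 CPM in hepatoblasts and 195 CPM in EC, with more than 3 UMIs for 16 of them in hepatoblasts. Lifr, a receptor subunit for leukemia inhibitory factor, was at 43.7 and 23.5 CPM, Ghr, the growth hormone receptor, at 31.2 and 13.6 CPM, Met, the receptor of hepatocyte growth factor, at 26.6 and 16.1 CPM, and Gcgr, the glucagon receptor, at 15.6 and 18.5 CPM. Osmr, the oncostatin M receptor subunit, had no UMI.

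Over all hepatoblasts, cell cycle transcripts were at the level of EC for S phase genes and lower for mitotic genes. The 14 S phase genes summed to 1821 and 1749 CPM in the 2 libraries, against 1812 CPM in EC (ratio 0.983, interval 0.922 to 1.05) and 2793 CPM in hematopoietic cells. The 16 G2 and mitosis genes summed to 1646 and 2137 CPM, against 2922 CPM in EC and 3528 CPM in hematopoietic cells, a ratio to EC of 0.657 (interval 0.622 to 0.694). Ube2c, which directs proteins of mitosis to degradation, was at 286 and 412 CPM, and Rrm2, a subunit of ribonucleotide reductase, at 198 and 236 CPM. No member of either list was 10-fold higher or lower. Without the 12 globin-rich cells the sums were 1618 CPM for S phase and 1824 CPM for G2 and mitosis. The S phase sum then lay below the pooled EC interval of 1722 to 1906 CPM. It lay between the EC of library 1, at 1603 CPM, and those of library 2, at 1909 CPM. No difference from EC is therefore drawn from it.

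Beyond the lists, the genes with the highest ratio to hematopoietic cells included Apof, Pla2g12b, H2-Q7, Igfbp1, Gldc and Cpn1. Apof, an apolipoprotein, was at 184 and 121 CPM in the 2 hepatoblast libraries against 0.0356 CPM in hematopoietic cells, from 4 UMIs, a ratio of 4186. Pla2g12b, a phospholipase-like protein of lipoprotein secretion, was at 198 and 146 CPM, and Igfbp1, which binds insulin-like growth factors, at 159 and 65.4 CPM. Cpn1, a carboxypeptidase of plasma, was at 209 and 172 CPM and Gldc, of the glycine cleavage system, at 100 and 58.0 CPM. Apof, Pla2g12b, Igfbp1 and Cpn1 had no UMI in EC. H2-Q7, a non-classical class I gene, was at 122 and 55.6 CPM, but its family of near-identical genes makes it uncertain. Against EC, the highest ratios were mostly those of the plasma proteins already given, and they included Ambp (2593 and 1742 CPM), the precursor of bikunin, and Ahsg (1243 and 751 CPM), which encodes fetuin-A. Neither had a UMI in EC.

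At the other end, with under 3 UMIs set to 3, Lyve1, a receptor for hyaluronan on endothelium, had the lowest ratio to EC, at 0.00186, from 1 UMI in hepatoblasts against 1112 CPM in EC, and Mest followed at 0.00236. Genes without any UMI in hepatoblasts cannot be ordered by their ratio. The 10 of them with the highest level in EC were Cldn5, Oit3, Fabp4, Esam, Gimap4, Fam167b, Gap43, Clec14a, Cdh5 and Rasip1, of which Fabp4 was at 574 CPM in EC, Gimap4 at 391 CPM and Clec14a at 356 CPM.

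Markers of most other cell types were low, and the erythroid and stellate lists stood apart. The 12 endothelial markers summed to 89.6 CPM, of which 85.5 CPM was Egfl7, a gene at 78.3 CPM in hematopoietic cells too. Cdh5, Cldn5, Oit3, Esam, Tie1, Flt1 and Flt4 had no UMI, against 5545 CPM for the list in EC. Of 11 macrophage markers 8 had no UMI, among them C1qa, Csf1r, Adgre1 and Fcgr1, and the list summed to 14.5 CPM, led by Lyz2 at 8.27 CPM, against 469 CPM in hematopoietic cells. The 9 granulocyte markers summed to 89.6 CPM, led by S100a9 at 31.0 CPM, compared with 2729.7 CPM in the free RNA of library 1 and 1994 CPM in that of library 2. The 6 megakaryocyte markers summed to 14.5 CPM, led by Pf4 at 4.14 CPM. Of the pan-hematopoietic and progenitor markers Ptprc (CD45) had no UMI, and the list summed to 30.3 CPM, with 44.4 CPM in library 2 and 8 UMIs in all in library 1, led by Myb at 6.90 CPM. It held 5 Kit UMIs, all in library 2, and 8 Runx1 UMIs. Wt1, Upk3b, Msln and Lrrn4, of the 6 mesothelial markers, had no UMI, and that list summed to 4.14 CPM, led by Podxl at 3.45 CPM.

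The stellate and mesenchymal list summed to 248 CPM in library 1 and 114 CPM in library 2, and to 269 CPM in Mk cells. Most of this was Reln, the secreted protein reelin, which was at 149.9 and 102 CPM in hepatoblasts, against 8.45 CPM in EC and 41.1 CPM in EryP cells, its next highest level. After thinning it was seen in 15 of 55 hepatoblasts (27.3%, interval 16.1 to 41.0%), 2 of 45 EC (4.44%) and 48 of 259 EryP cells (18.5%, interval 14.0 to 23.8%), and without thinning in 40 of 64 hepatoblasts and 21.5% of EryP cells. Colec11 had 16 UMIs in 4 cells and Dcn, a matrix proteoglycan, 12 UMIs in 3 cells. All 14 UMIs of the collagen gene Col3a1 came from 1 cell of library 1.

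The 14 erythroid markers summed to 18896 CPM in library 1 and 49265 CPM in library 2, against 24816 CPM in EC. Their most abundant gene was Hbb-bs, at 7719 and 17333 CPM. The free RNA held 213574 CPM of this list in library 1 and 397532 CPM in library 2. Were all the Hbb-bs of hepatoblasts free RNA, free RNA would make up 8.69% of their UMIs in library 1 and 10.3% in library 2, compared with 14.6% and 5.06% in EC. In the 52 cells with under 10% adult globin the list was at 21927 CPM and in the 12 others at 186984 CPM. Hba-a1 and Hba-a2, and Hbb-bs and Hbb-bt, are near-identical copies and uncertain one by one.

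Among hepatoblasts the globin and plasma protein genes varied far beyond counting error. Among 666 genes with at least 200 CPM, the median ratio of the observed variance to that of Poisson counting was 2.17. This ratio grows with the level of a gene, so that abundant genes lead. The 10 highest ratios were those of Hbb-bs (654), Hbb-bt (434), Hba-a1 (410.2), Hba-a2 (257), Afp (121), Alb (119), Apoa1 (75), Ttr (61.5), Rbp4 (59.9) and Apoa2 (47.7). Without the 12 globin-rich cells the ratio of Hbb-bs was 103, whereas those of Alb and Ttr were little changed at 117 and 63.1. In these 52 cells Alb ranged from 0 to 46127 CPM, with a median of 12525 CPM, and Afp from 1204 to 64802 CPM, with a median of 19146 CPM. Alb and Afp were high in the same cells, with a Pearson r of 0.923 over the logarithms of CPM + 100 in 64 cells and 0.886 in 52. This is a description across cells that share 1 liver, 2 libraries and a common denominator.

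One gene owed its level to a single cell. Cxcl10, a chemokine induced by interferon, had 114 UMIs in hepatoblasts, of which 94 were in 1 cell of library 1, and only 8 of the 64 cells had any. Its levels, 169 CPM in library 1 and only 7.41 CPM in library 2, therefore largely describe that cell.

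Between the technical libraries most genes matched. Of 2630 genes that reached 50 CPM in either library, 2515 (95.6%) were within 2-fold and 115 were not, a number that rose to 516 when each cell was given equal weight. Across the 2166 genes with at least 50 CPM in both, log2 CPM had a Pearson r of 0.966, a correlation across genes, which are not independent replicates. The largest drops from library 1 to library 2 were those of Gstp1 (781 to 9.88 CPM), Pgk1 (340.5 to 4.94), Hist1h2ap (623 to 9.88), Gm10076 (1434 to 46.9) and Cxcl10. Apart from Cxcl10 these fell alike in hematopoietic cells, where Gstp1 was at 152 and 2.90 CPM, Pgk1 at 121 and 3.08, Hist1h2ap at 848 and 18.8 and Gm10076 at 890.1 and 26.7. These 4 have near-identical copies elsewhere in the genome, as does Hmga1, and are uncertain. The matrix header of library 1 names another software version than the methods, and whether both libraries were counted with the same reference and settings was not tested, so that the pooled levels of these genes mix values that may not be comparable. The largest rises were those of Gm10036 (15.6 to 149 CPM), Pim1 (17.2 to 76.5), Gm26917 (21.9 to 93.8), Tuba1c (37.5 to 129.6) and Hba-a1 (3352 to 11114). Of these, Gm10036 (16.8 to 79.1 CPM), Gm26917 (56.1 to 86.7), Tuba1c (114 to 235) and Hba-a1 (33374 to 76956) rose in hematopoietic cells too. Pim1 was level there, at 263 and 254 CPM. In hepatoblasts without the 12 globin-rich cells Pim1 was at 22.6 CPM, compared with 50.3 CPM in all.

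**Figure D5:**
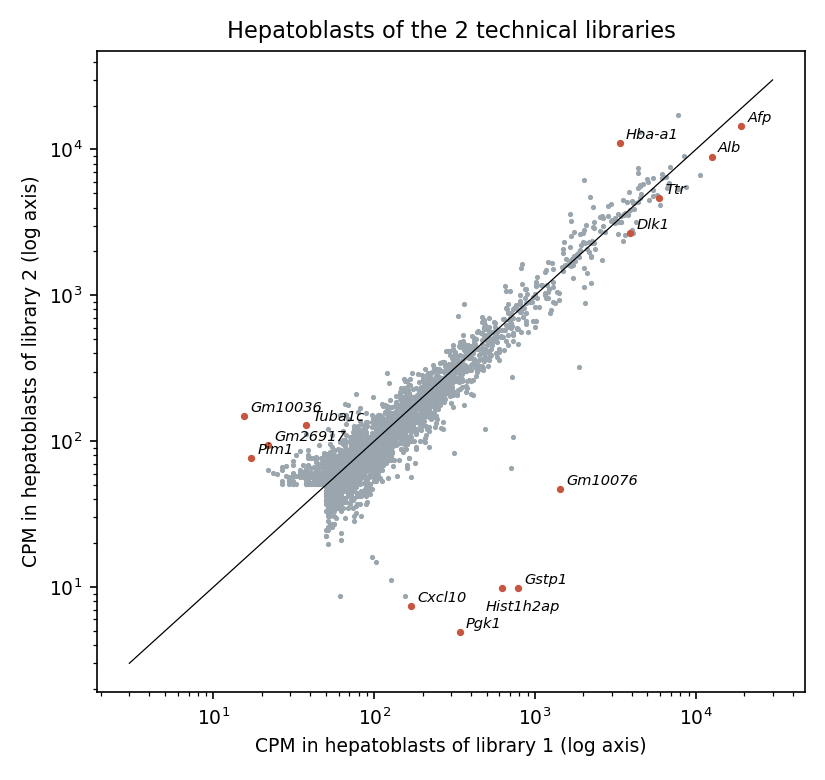
CPM of each gene that reached 50 CPM in either library, in the hepatoblasts of library 1 (x axis, log scale) and library 2 (y axis, log scale), with the line of equal levels. The 5 highest and 5 lowest library ratios and 4 abundant hepatoblast genes are named and drawn in red; Gstp1, Pgk1, Hist1h2ap, Gm10076 and Cxcl10 lie far under the line, and Afp and Alb close to it.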

How the data were processed

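Per the labels and methods, the authors sequenced 2 technical libraries of 1 liver (E12.5), demultiplexed with bcl2fastq 2, counted UMIs with Cell Ranger 2.1.1 on mm10 and processed cells with Seurat 3.2.0. The header of the library 1 matrix names software version 3.0.0. The deposited matrices hold raw UMI counts per gene and barcode, and the deposited cell table gives each cell's type, from the authors' clustering and annotation. Further doublet removal was not done here. Counts were summed per cell type and divided by their total (CPM). Levels have exact Poisson and shares Clopper-Pearson 95% intervals, and a count under 3 was set to 3 for folds. Shares were compared after thinning each cell to 3600 UMIs. Thinning, intervals and the fold rule were tested on simulated counts with counting error only, without the extra variation seen among hepatoblasts. The fold rule was simulated only for genes with at least 50 CPM in hematopoietic cells, not for genes near the floor there. Software was Python 3.11.15 with numpy 2.4.6 and scipy 1.17.1. Positions are from GENCODE vM21 and upstream sequences from RefSeq (GRCm38.p6). The named genes were the 4 most abundant members of each list, all listed transcription factors, and the extremes of each ratio, with others chosen after their values were seen. A few genes under this rule are not reported here. Lists and members were chosen with earlier results of these data known. The Apoc2 symbol belongs to 2 gene identifiers and was left out.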

Additional observations from a re-analysis of the deposited data

Results flagged for a closer look

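Among barcodes not called as cells, library 2 held 26 with at least 1000 UMIs of which at least 5% came from plasma protein genes. Library 1 held 0. In library 2 all 5057 called barcodes were kept. Library 1 had 5764 called barcodes and 5480 kept cells, and its called barcodes that were not kept were not examined. These were 0.751% of 3461 such deep barcodes in library 2, against 169 deep barcodes in library 1. The 26 had 1036 to 3848 UMIs, with a median of 1458, and so were shallower than the shallowest kept cell of library 2, at 4387 UMIs, whereas library 1 kept cells down to 504 UMIs. Pooled, they had 13.7% plasma protein UMIs and 10.1% adult globin UMIs, Alb at 24959 CPM, Afp at 24428 CPM, Apoa1 at 11534 CPM and Ttr at 7413 CPM, and no UMI of Cldn5, an endothelial gene. They were noticed as a signal in data that entered no comparison. Their part in the hepatoblast share of library 2 was not tested.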

How the results depend on the processing

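No test was possible in 1 liver, and no paired analysis was possible because the 2 technical libraries form a single group. Each alternative was compared with the main result by the size of the change only, and a reversal was not looked for. The levels of Afp, Alb, Apoa1 and Ttr, the plasma protein and adult globin shares and the number of lists at least 10-fold above hematopoietic cells moved by less than the spread of the libraries (for the lists, less than 1.5 times) under every alternative run for them, including those added after seeing the data (without the 12 globin-rich cells, and with at least 4000 UMIs). With 2 libraries this spread is wide, and leaving 1 out stays under it almost by construction. The adult globin share, 3.45% in all, was 1.76% without library 2, 4.78% without library 1, 5.02% with equal weight per cell and 2.09% without the globin-rich cells. The hepatoblast share was 0.728% among cells with at least 1000 genes and under 10% mitochondrial UMIs. Genes higher than in EC numbered 113 to 149 with 1 library left out, the floor of 3 UMIs being 11.4 CPM in the EC of library 1, and 110 at a fold of 20. Genes higher than in hematopoietic cells numbered 411 at a minimum of 20 CPM, and genes lower than in EC 429. Genes lower than in hematopoietic cells numbered 61 without globin and mitochondrial UMIs in the denominator, 74 after subtraction of free RNA, 79 at a fold of 5, 21 at a fold of 20, 66 at a minimum of 20 CPM, 129 with equal weight per type and 200 without the 3 erythroid types. Genes over 2-fold apart between the libraries numbered 115, and 516 with equal weight per cell, where shallow cells count fully. The median variance ratio was 1.89 to 2.1 with 1 library left out. Thinned shares changed to 99.8% for Afp as the mean over all draws, to 100% for Apoa1 without thinning or at the doubled depth, and for Ttr to 98.4% without thinning, 97.7% at that depth, 92.7% for at least 2 UMIs and 97.7% without the globin-rich cells. Of 243 list levels under these alternatives, 18 moved beyond the spread of the libraries. Subtraction of free RNA moved the lists of erythroid (to 6148 CPM), granulocyte (0.589), macrophage (4.09), megakaryocyte (3.29) and pan-hematopoietic (14.8) markers by over 1.5 times, as did library 1 alone for the erythroid and pan-hematopoietic lists, library 2 alone for the stellate list, equal weight per cell for the granulocyte list and the loss of the globin-rich cells for the erythroid list. Depth limits the rare genes. With 64 cells, the floor of 3 UMIs is 2.07 CPM, and no alternative replaces a second liver.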
